A study of Mus musculus with 11 samples.

Results

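The nuclear-encoded subunits of oxidative phosphorylation were followed through 11 RNA-seq libraries of mouse embryonic stem cells (ESCs). Genes were taken by symbol, as all names beginning with Nduf followed by a, b, c, s or v and a number, with Cox4 to Cox8, with Uqcr or with Atp5, together with Sdha, Sdhb, Sdhc and Sdhd. The rule found 85 of the 23284 genes listed, 37 of complex I, 4 of complex II, 8 of complex III, 17 of complex IV and 15 of complex V. It also took 4 genes whose names fit but whose products are not core subunits of a complex, namely Cox7a2l (a supercomplex assembly factor), Cox4nb (now Emc8, part of the endoplasmic reticulum membrane complex), Atp5s (now Dmac2l) and Atp5sl (now Dmac2). Ndufa4 and Ndufa4l2 were kept with complex I by symbol, although the Ndufa4 protein is now counted as part of complex IV.

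Oxidative phosphorylation makes ATP at the inner mitochondrial membrane. Complexes I and II pass electrons from NADH and succinate to ubiquinone, complex III hands them to cytochrome c, complex IV delivers them to oxygen, and complex V, the ATP synthase, uses the proton gradient built on the way. All but a few of the subunits are encoded in the nucleus, and their genes are broadly expressed because nearly every cell needs them, while several complex IV subunits also have isoforms restricted to muscle, testis or other tissues. ESCs rely heavily on glycolysis but carry functional respiratory chains. The subunits encoded by mitochondrial DNA were not analysed here.

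The libraries fell into 5 groups. WT and Tet1, Tet2 and Tet3 triple-knockout (TKO) ESCs, grown on gelatin in serum with leukemia inhibitory factor, were sampled without treatment (0 h) and 4 h after α-amanitin, which blocks RNA polymerase II, was given at 10 µg/ml. Each of these 4 groups had 2 libraries of ribodepleted total RNA. Tet enzymes oxidise 5-methylcytosine in DNA and RNA. A further 3 libraries were made from polyadenylated RNA of untreated WT ESCs. WT and TKO cells are separate lines, so effects of the knockout and of the line cannot be told apart, and nothing in the labels says whether replicates came from separate cultures, so p-values measure the spread between these libraries only.

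Values are TPM, which correct for transcript length and library size, and scaled TPM are TPM divided by a size factor for each library. Recovered read totals ranged from 25507874 to 29781366 in the ribodepleted libraries and from 72639837 to 82129168 in the polyA libraries. Tet1 and Tet2 were called lower in TKO at 0 h, with log2 differences from WT of -2.11 and -2.64, and Tet3, between 1.39 and 1.51 scaled TPM in these 4 libraries, differed by 0.00048 (adjusted p = 0.997). All 9 pluripotency markers examined were above 1 TPM in every library. The summed level of 5 trophoblast markers was 1056 to 1161 TPM in TKO libraries and 186 to 217 TPM in ribodepleted WT libraries. For 6 fibroblast markers it was 12.5 to 14.3 TPM (TKO) and 7.51 to 9.82 TPM (WT). For 7 endoderm markers it was 1.83 to 2.75 and 3.24 to 4.37 TPM, and sums of 4 mesoderm and neural markers overlapped. A sum can rest on few of its genes. The part of these sums in the genotype comparisons below was not tested. TPM measure a gene's part of its own library. A loss common to every transcript when transcription stops does not show in them, and fewer cells and less RNA per cell cannot be told apart. Calls required a change over 1.5-fold and a limma adjusted p (Benjamini-Hochberg, over all genes tested) under 0.05. Genes that passed the adjusted p alone, at any size of change, were counted separately. Of the 85 genes, 79 had a mean scaled TPM above 1 in the ribodepleted libraries and entered the test among 12467 genes, and 81 entered the test of polyA libraries among 12481. Exons of 19 of the 85 overlap those of another gene, and many of these genes have processed copies elsewhere in the genome. How shared reads were assigned is not given in the sources used here, so those values carry that uncertainty.

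The promoters of the 5 genes that stood out in the comparisons below are shown first, as RefSeq windows of 300 bases on GRCm38.p6, from 250 bases before the transcription start to 50 after it, written 5′ to 3′ on the strand of the gene. Capitals mark 3 motifs long associated with respiratory-chain genes, searched on both strands as exact letters: GCATGCG, the core of the site of the transcription factor NRF1, CCGGAAG, a site of ETS factors such as GABPA, and AAGATGGCG, a site of YY1. Cox6b2 and Ndufv3 were called lower in TKO cells, and Cox6a1, Cox8a and Ndufb4, picked after their values were seen, had the largest increases in α-amanitin in WT cells.
Cox6b2 (chr7:4753045-4753344, minus strand): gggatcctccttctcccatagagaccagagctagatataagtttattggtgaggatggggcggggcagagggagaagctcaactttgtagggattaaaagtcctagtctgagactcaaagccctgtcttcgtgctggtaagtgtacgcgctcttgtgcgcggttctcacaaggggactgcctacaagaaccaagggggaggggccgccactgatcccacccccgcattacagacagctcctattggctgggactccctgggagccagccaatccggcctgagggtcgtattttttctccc
Ndufv3 (chr17:31519865-31520164, plus strand): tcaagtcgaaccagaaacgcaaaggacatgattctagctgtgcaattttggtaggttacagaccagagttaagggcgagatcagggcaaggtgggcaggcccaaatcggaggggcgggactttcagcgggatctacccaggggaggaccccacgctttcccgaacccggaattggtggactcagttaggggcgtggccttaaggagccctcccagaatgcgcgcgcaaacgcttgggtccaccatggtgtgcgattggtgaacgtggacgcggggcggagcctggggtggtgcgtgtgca
Cox6a1 (chr5:115348909-115349208, minus strand): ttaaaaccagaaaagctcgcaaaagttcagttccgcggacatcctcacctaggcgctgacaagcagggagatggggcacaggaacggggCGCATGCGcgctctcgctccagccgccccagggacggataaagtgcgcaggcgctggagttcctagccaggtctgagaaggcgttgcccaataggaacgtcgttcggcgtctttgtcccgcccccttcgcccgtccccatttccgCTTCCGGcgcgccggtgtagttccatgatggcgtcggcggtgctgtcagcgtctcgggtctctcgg
Cox8a (chr19:7217567-7217866, minus strand): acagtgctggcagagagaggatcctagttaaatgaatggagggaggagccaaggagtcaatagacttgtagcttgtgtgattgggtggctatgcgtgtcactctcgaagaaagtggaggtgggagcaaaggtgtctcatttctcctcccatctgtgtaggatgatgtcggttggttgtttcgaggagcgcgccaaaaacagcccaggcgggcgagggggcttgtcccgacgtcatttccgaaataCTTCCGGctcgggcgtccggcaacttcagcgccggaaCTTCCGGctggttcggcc
Ndufb4 (chr16:37654319-37654618, minus strand): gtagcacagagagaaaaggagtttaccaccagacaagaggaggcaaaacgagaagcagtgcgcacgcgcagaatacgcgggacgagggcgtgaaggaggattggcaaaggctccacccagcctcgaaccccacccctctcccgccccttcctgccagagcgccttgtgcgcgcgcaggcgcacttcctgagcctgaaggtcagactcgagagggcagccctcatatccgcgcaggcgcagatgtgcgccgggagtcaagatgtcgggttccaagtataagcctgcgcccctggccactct

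Cox6a1 held the NRF1 core on both strands of a single palindrome and 1 ETS motif, Cox8a held 2 ETS motifs, and the windows of Cox6b2, Ndufv3 and Ndufb4 held none of these letters. All 85 genes were matched to a current RefSeq symbol, 4 of them through an older name, and 69 had a promoter entry, with 75 windows in all. The NRF1 core was in 14.7% of these windows and in 3.58% of all 32851 windows in the table, the ETS motif in 21.3% and 8.86%, and the YY1 motif in 12.0% and 1.40%. At least 1 of the 3 was present in 29 of the 75 windows, or 38.7%, against 12.9% of all windows. The windows of the respiratory-chain genes had a median of 19 CpG dinucleotides against 7 over all windows. Each of the 3 motifs holds a CpG, and the windows compared were not matched for CpG content, so its part in these shares was not tested. Cox6b2 had 10 CpG and Ndufv3 had 20. A match is a description of letters and not of binding, which was not measured here.

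In steady state the respiratory-chain mRNAs were abundant and short. The tested genes had a median level of 184 scaled TPM against 18.9 over all tested genes, and a median feature length of 679 bases against 2733. A level above 100 scaled TPM was found for 62 of the 79, compared with 13.3% of all tested genes. Together the 85 genes took between 1.96% and 2.05% of the deposited TPM in WT libraries at 0 h, between 2.20% and 2.25% in WT at 4 h, between 1.97% and 1.98% in TKO at 0 h, and between 2.06% and 2.19% in TKO at 4 h. In polyA libraries the share was between 3.03% and 3.05%. Between 12.2% and 14.7% of the TPM of ribodepleted libraries belonged to the noncoding RNAs Rpph1 and Rmrp.

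Subunits of the same complex differed widely in level, although the proteins assemble at fixed ratios. In complex V, Atp5b, the catalytic β subunit, was the most abundant of all members, at 2010.2 and 2107 scaled TPM in the 2 WT libraries at 0 h, and Atp5a1, the α subunit, was at 1116 and 1175. Atp5c1, the γ subunit of the central stalk, was at 293 and 326, and the lowest member, Atp5l, encoding subunit g, was at 57.6 and 68.4. The 3 genes that encode the same mature membrane-ring subunit c were Atp5g3 at 457 and 478, Atp5g1 at 244 and 256 and Atp5g2 at 157 and 174 scaled TPM. Their libraries did not overlap in that order at 0 h in WT. The polyA libraries of WT cells gave other orders. There Atp5g2 (439, 422 and 436 scaled TPM) lay above Atp5g1 (289, 295 and 308), and Atp5l (436, 401 and 419.9) above Atp5c1 (275, 267 and 269). Cox7c of complex IV (2400.4, 2436 and 2405) lay above Atp5b (2006, 2000.1 and 2079).

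Tested genes with complex I symbols ranged from Ndufa4 (418 and 449.8 scaled TPM in WT at 0 h) to the accessory subunit Ndufa11 (38.2 and 37.4). In its catalytic core, whose subunits carry the flavin and iron-sulphur clusters, Ndufv1 was at 174 and 187, Ndufs1 at 137 and 139 and Ndufs8 at 89.0 and 93.9. Ndufs5 was listed at 0 in all 11 libraries, and a gene that every cell uses at 0 may be a failed estimate. In complex II, Sdha, the flavoprotein, was at 182 and 185 scaled TPM, and Sdhc, a membrane anchor, was the lowest at 104 and 107. Complex III ranged from Uqcrh, the hinge protein, at 369.8 and 421 to Uqcrfs1, the Rieske iron-sulphur protein, at 162 and 174, with the accessory subunit Uqcr10 at 335 and 388. In the polyA libraries Sdhc (199.8, 191 and 205) lay above Sdhb (138, 133 and 140), and Uqcrq (640.5, 612 and 643) above Uqcrh (462, 453 and 468).

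Isoforms of complex IV subunits were uneven in level, with the ubiquitous form higher in every ribodepleted library. Cox4i1, the broadly expressed form of subunit 4, was at 1296 and 1434 scaled TPM in WT at 0 h, while the lung and hypoxia-associated form Cox4i2 was at 0.572 and 0.96. Cox6a1 was at 304 and 326 and its heart and muscle counterpart Cox6a2 had 0 reads in both of these libraries, and at most 2 reads in any ribodepleted library. The muscle form Cox8b had at most 1 read, and the testis form Cox8c at most 3, in any ribodepleted library, against 414 and 458 scaled TPM for Cox8a. A further pair of restricted forms was detected at low level in the ribodepleted WT libraries at 0 h. Cox6b2, known from testis, was at 22.4 and 21.6 beside Cox6b1 at 343 and 374. Cox7a1, known from heart and muscle, was at 14.4 and 17.2 beside Cox7a2 at 263 and 275. In the polyA libraries Cox6b2 was at 189, 203 and 192. Cox7b2 (1.02 and 1.29) and Ndufa4l2 (0.72 and 0.508) stood near 1 scaled TPM or below, against 217 and 239 for Cox7b and 418 and 449.8 for Ndufa4.

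To ask how respiratory-chain mRNAs fare when transcription is blocked, WT cells at 4 h were compared with WT cells at 0 h. All 5 complexes moved upward together relative to other transcripts, by small amounts. The log2 change was above 0 for 79 of 79 genes, where 54.1% of all tested genes were above 0, and 69 of the 79 passed the adjusted p as higher, where 21.9% of all tested genes did. None passed as lower, where 15.8% of all tested genes did. None exceeded 1.5-fold, so none was called higher or lower (0.0882% and 2.01% of all tested genes were called). Limma voom on recovered reads called none either, where it called 34 higher and 382 lower of all 12467 tested genes. In limma, an unadjusted p under 0.05 was found for 73 (49.1% of all tested genes). The median change was 0.30 on the log2 scale, against 0.028 over all genes, with a range of 0.048 to 0.43. The 4 h libraries lay wholly above the 0 h libraries for 76 genes, against 40.5% of all tested genes, and wholly below them for none, against 32.5%.

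Subunits of all 5 complexes took part. Their median log2 changes were 0.30 for complex I (33 of 35 tested genes passed), 0.34 for complex II (4 of 4), 0.31 for complex III (8 of 8), 0.30 for complex IV (10 of 13) and 0.29 for complex V (13 of 15). The 4 genes outside the complexes had a median of 0.097, and only Cox4nb passed (0.26, adjusted p = 0.00915). Differences between complexes were not tested, because genes of a complex are not replicates.

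Cox6a1, a regulatory subunit of complex IV, had the largest change. It was at 304 and 326 scaled TPM at 0 h and 434 and 414 at 4 h in WT, a log2 change of 0.43 (SE 0.08, adjusted p = 0.00752), with both treated libraries above both untreated ones. Ndufb4, an accessory membrane-arm subunit of complex I, went from 44.4 and 49.8 to 67.1 and 59.5 (log2 change 0.42, adjusted p = 0.00746), and Cox8a, the smallest complex IV subunit, from 414 and 458 to 624 and 541 (log2 change 0.42, adjusted p = 0.0106).

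In the catalytic core of complex I, Ndufs3 rose by 0.25 (adjusted p = 0.0378), Ndufv1 by 0.27 and Ndufv2 by 0.36 (adjusted p = 0.00695). The 4 complex II genes rose as well. Sdha changed by 0.32 (adjusted p = 0.00443), Sdhb, the iron-sulphur subunit, by 0.38, and the anchors Sdhc and Sdhd by 0.37 and 0.20. In complex III, Uqcrc1 and Uqcrc2, the core proteins, changed by 0.34 and 0.32, and Uqcrfs1 by 0.24 (adjusted p = 0.00913). Cox4i1 rose from 1296 and 1434 to 1759 and 1684 scaled TPM (log2 change 0.34, adjusted p = 0.0164), and Cox5a and Cox5b rose by 0.32 and 0.30. Atp5b rose from 2010.2 and 2107 to 2552 and 2492 (log2 change 0.29, adjusted p = 0.0154). Of the subunit c genes, Atp5g1 (0.35) and Atp5g3 (0.27) passed, and Atp5g2 did not (log2 change 0.16, adjusted p = 0.13). Ndufv3 missed the threshold here (log2 change 0.20, adjusted p = 0.0629), as did Cox6b2, Cox7a1 and Cox7b2.

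**Figure D1:**
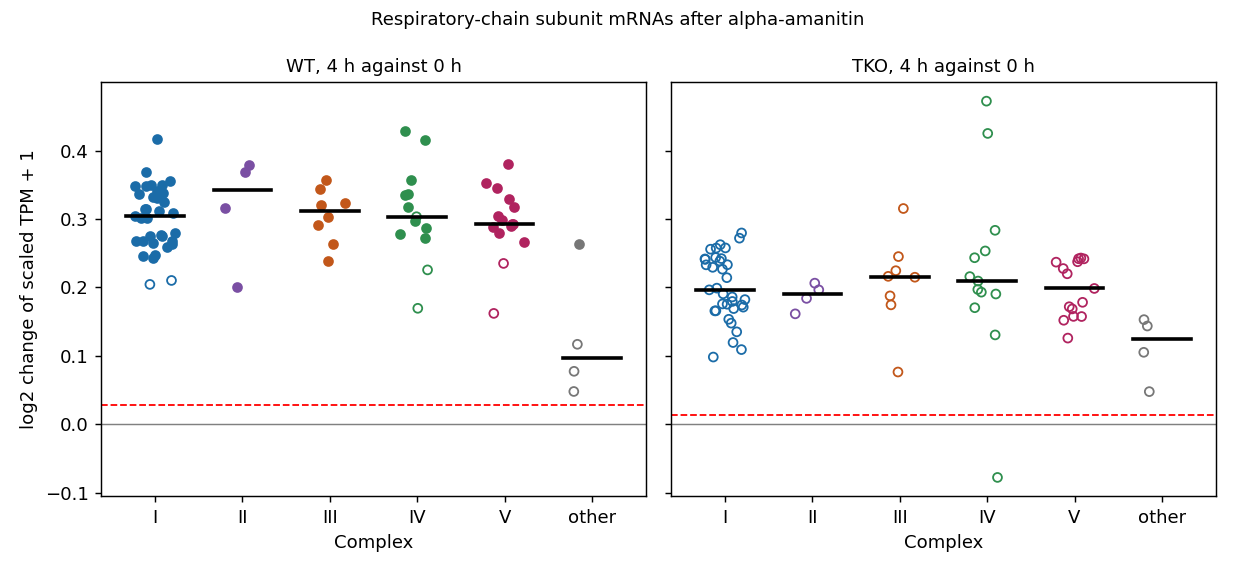
Fitted log2 change of scaled TPM + 1 between 4 h of α-amanitin and 0 h in WT (left) and TKO (right) ESCs, with 1 point for each of the 79 tested genes, grouped by complex along the horizontal axis. Filled points passed an adjusted p of 0.05 in limma (69 in WT, 0 in TKO), black bars are medians over genes, and the dashed line is the median over all 12467 tested genes.

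The number of genes passing depended on single libraries. With replicate 1 of WT at 0 h left out, 14 genes passed as higher (5.91% of all genes tested in that setting), and with replicate 1 of WT at 4 h left out, 3 passed (0.815%), while without the other replicate of each group 63 (13.8%) and 59 (13.2%) did. With deposited TPM, unscaled, 29 passed (3.18%) and 3 changes turned below 0, while the median of all genes moved to -0.11. After quantile normalisation 28 passed (12.1%) and 1 change turned below 0. Against all genes the median change was 0.27 with size factors, 0.25 unscaled and 0.12 for quantile-normalised values. Other abundant and short genes moved in the same direction. In the range of 200 to 1000 bases and above 100 scaled TPM, a range set after the values were seen, the median change was 0.32 for 42 respiratory-chain genes and 0.27 for 299 other genes.

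In TKO cells nearly all changes were above 0 as well, but none passed the test. After 4 h, 78 of 79 genes had a log2 change above 0, against 53.6% of all tested genes, with a median of 0.20 against 0.013 over all genes. No gene passed the adjusted p in either direction (0.0% of all tested genes passed as higher and 0.265% as lower), and none was called (0.0% and 0.16%), while 57 were under an unadjusted p of 0.05, against 24.9% of all tested genes, and 19 passed as higher in limma voom on recovered reads, where 1.88% of all tested genes did. For 72 genes the 4 h libraries lay wholly above the 0 h libraries, against 32.7% of all tested genes, and no gene had them wholly below (26.0% of all tested genes).

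The TKO libraries at 4 h differed from each other. Relative to the mean of their own 0 h libraries, the median change of the 79 genes was 0.11 in replicate 1 and 0.29 in replicate 2, while it was 0.34 and 0.27 in the WT libraries. Without replicate 1, 63 genes passed as higher, as did 12.7% of all genes tested in that setting, and the median relative to all genes moved from 0.18 to 0.28, and without replicate 2, 1 gene passed, Cox6b2 (0.0161% of all genes). Atp5b stood at 1864 and 1892 scaled TPM in TKO at 0 h and at 1988 and 2209 at 4 h (log2 change 0.16, SE 0.071, adjusted p = 0.209). Cox4i1 stood at 1312 and 1307 at 0 h against 1404 and 1632 at 4 h (log2 change 0.21, adjusted p = 0.176). In both cases the treated libraries were higher, replicate 2 more so. The gene with the largest fitted TKO value was the low-level isoform Cox7a1, at 13.5 and 17.9 scaled TPM at 0 h against 21.1 and 22.9 at 4 h (log2 change 0.47, adjusted p = 0.117), and Cox7b2 had the only value below 0 (-0.077, adjusted p = 0.756).

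The difference between the WT and TKO responses was tested directly as an interaction, and no gene passed for either direction, in limma or in limma voom (0.0% of all tested genes passed). The unadjusted p was under 0.05 for 3 of the 79 genes, against 7.52% of all tested genes. The median interaction was -0.11 on the log2 scale against -0.015 over all genes, with 9 of 79 genes above 0, compared with 45.6% of all tested genes. Less the all-gene median it was -0.092, and it was -0.0032 without replicate 1 of TKO at 4 h. Cox6a1 had an interaction of -0.26 (SE 0.11, adjusted p = 0.663), Sdha of -0.15 (adjusted p = 0.662) and Cox6b2 of 0.26 (adjusted p = 0.687).

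The respiratory chain was next compared between TKO and WT cells at each time. The WT libraries at 0 h and at 4 h also served in the α-amanitin comparison, so these values are not independent of it. Cox6b2 and Ndufv3 were called lower in TKO at both times. They were the only genes called among 79, and none was called higher, where 5.43% of all tested genes were called lower and 10.5% higher at 0 h, and 5.82% and 11.0% at 4 h. Limma voom on recovered reads also called 2 lower and 0 higher at each time. Of all 12467 tested genes it called 869 lower and 1579 higher at 0 h, and 892 and 1742 at 4 h. In limma, 39 genes at 0 h (61.1% of all tested genes) and 54 at 4 h (63.6%) were under an unadjusted p of 0.05 in either direction.

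Cox6b2, the testis-associated isoform of a subunit on the outer face of complex IV (chromosome 7, 4703396 to 4704696 in mm9, minus strand), was at 22.4 and 21.6 scaled TPM in WT and 11.0 and 10.6 in TKO at 0 h. The 4 h values were 24.7 and 25.0 in WT against 17.0 and 12.9 in TKO. Every TKO library lay below every ribodepleted WT library. The log2 difference was -0.96 at 0 h (SE 0.10, adjusted p = 9.24e-05) and -0.71 at 4 h (SE 0.10, adjusted p = 0.000469). Its ubiquitous counterpart Cox6b1 had 343 and 374 scaled TPM in WT against 335 and 324 in TKO at 0 h and did not pass (log2 difference -0.12, adjusted p = 0.285).

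Ndufv3, an accessory subunit of the NADH-binding module of complex I (chromosome 17, 31657060 to 31668266 in mm9, plus strand), was at 51.9 and 52.5 scaled TPM in WT and 33.4 and 30.8 in TKO at 0 h, whereas the 4 h libraries held 61.1 and 59.4 (WT) and 34.9 and 41.3 (TKO). Again no TKO library reached the WT range. The log2 difference was -0.69 at 0 h (SE 0.076, adjusted p = 0.000104) and -0.65 at 4 h (SE 0.076, adjusted p = 0.000124). Its partners in the module, Ndufv1 and Ndufv2, had log2 differences of -0.13 and -0.16 at 0 h and passed at neither (adjusted p = 0.146 and 0.0528). At 4 h both passed, at -0.22 and -0.25. With deposited TPM, where the median difference of all genes moved to 0.14, neither Cox6b2 nor Ndufv3 exceeded 1.5-fold at 4 h (log2 differences -0.56 and -0.50), while both kept an adjusted p under 0.05 under every alternative listed for these comparisons. Without replicate 1 of TKO at 4 h the difference of Ndufv3 at 4 h was -0.53, and without replicate 2 that of Cox6b2 was -0.52, both under 1.5-fold.

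**Figure D2:**
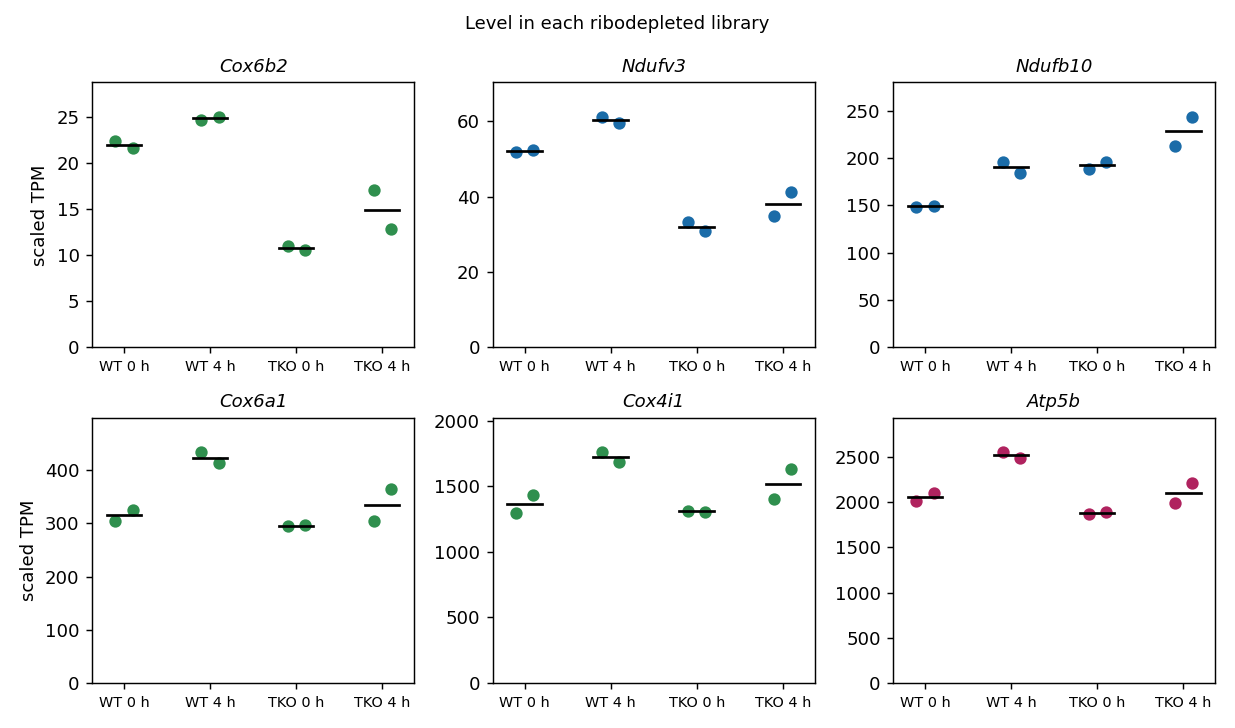
Scaled TPM of 6 genes in each of the 8 ribodepleted libraries, on a linear axis from 0, with 2 points (libraries) and a bar (their mean) for each group. Cox6b2 and Ndufv3 were lower in every TKO library than in any WT library, Ndufb10 was higher in TKO than in WT at each time, and Cox6a1, Cox4i1 and Atp5b were highest in WT at 4 h.

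Below the fold threshold, more TKO values were lower than higher. At 0 h, 28 genes passed the adjusted p as lower (28.2% of all tested genes did) and 4 as higher (27.8%). The 4, named after their values were seen, were Ndufb10 (0.36), Ndufb7 (0.23) and Ndufa10 (0.22), accessory subunits of complex I, and Sdhc (0.21). At 4 h, 49 passed as lower (30.3% of all tested genes) and 1, Ndufb10, as higher (29.1%). The log2 difference was above 0 for 17 of the 79 genes at 0 h (47.6% of all tested genes) and for 11 at 4 h (49.4%). The TKO libraries lay wholly below the WT libraries for 49 genes at 0 h (42.6%) and 55 at 4 h (39.9%), and wholly above for 9 (39.1%) and 3 (38.4%). The median log2 difference was -0.12 at 0 h against -0.019 over all genes, and -0.23 at 4 h against -0.0051. Both depended on the scaling. Relative to all genes the 0 h median was -0.11 with size factors and 0.0008 after quantile normalisation, and the 4 h median was -0.22 and -0.033. After quantile normalisation 13 genes passed as higher and 14 as lower at 0 h (27.0% and 29.1% of all genes), and 12 and 22 at 4 h (26.8% and 29.3%). Deposited TPM gave 13 and 19 at 0 h (33.4% and 17.6%) and 10 and 25 at 4 h (40.3% and 16.6%). Single libraries mattered as well. At 0 h, 13 genes passed as lower without replicate 1 of TKO at 0 h (21.0% of all genes), 9 without replicate 2 of TKO (20.5%) and 8 without replicate 2 of WT (22.6%), with 1 to 3 as higher. At 4 h, 29 passed as lower without replicate 1 of TKO at 4 h (28.3%) and 30 without replicate 1 of WT at 4 h (23.8%). The 0 h median relative to all genes was -0.17 without replicate 1 of WT at 0 h and -0.044 without replicate 2, and the 4 h median was -0.12 and -0.32 without replicates 1 and 2 of TKO at 4 h. Among other genes of 200 to 1000 bases and above 100 scaled TPM the median was -0.18 at 0 h and -0.24 at 4 h, against -0.15 and -0.24 for the respiratory-chain genes in that range.

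By complex, the median log2 difference at 0 h was -0.12 in complex I, 0.00051 in complex II, -0.17 in complex III, -0.12 in complex IV and -0.16 in complex V. At 4 h it was -0.22, -0.17, -0.21, -0.30 and -0.27 in the same order. Complex II held members that moved apart at 0 h. Sdhd was lower in TKO, at 159 and 157 scaled TPM against 192 and 209 in WT at 0 h (log2 difference -0.34, adjusted p = 0.00163), whereas Sdhc was higher, at 121 and 124 against 104 and 107 (adjusted p = 0.0217). Sdha and Sdhb differed by 0.02 and -0.019 at 0 h and did not pass. Sdhc and Sdhd together anchor the enzyme in the membrane. At 4 h the Sdhc libraries overlapped (131 and 152 in TKO, 137 and 135 in WT, log2 difference 0.051). By then 3 of the 4 complex II genes passed as lower in TKO and 0 as higher (30.3% and 29.1% of all tested genes).

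Within complex I a similar spread was seen. Ndufb10 was at 148 and 149.7 scaled TPM in WT and 188 and 196 in TKO at 0 h, then 196 and 184 (WT) and 213 and 243 (TKO) at 4 h, with a log2 difference of 0.36 (adjusted p = 0.00164) and 0.26 (adjusted p = 0.00853). The TKO libraries were higher at each time, and without replicate 2 of WT at 4 h the 4 h difference was 0.21 (adjusted p = 0.0694). In the other direction, Ndufa5 had 84.1 and 91.0 in WT against 67.8 and 60.4 in TKO at 0 h (log2 difference -0.45, adjusted p = 0.000819), and Ndufa6, Ndufb11 and Ndufa3 had differences of -0.38, -0.38 and -0.36 (adjusted p = 0.00545, 0.00824 and 0.00857). Ndufb11 no longer passed at 0 h without replicate 2 of TKO (adjusted p = 0.0624) or replicate 2 of WT (adjusted p = 0.0594). These 5 accessory subunits were picked after their values were seen, and deposited TPM and quantile normalisation turned the sign of 17 and 16 of the 79 differences at 0 h. Exons of Ndufb11 overlap Rbm10 on the opposite strand, and the strand setting of the counting is not given in the sources used here. In the catalytic core, Ndufs7 passed as lower at 0 h (-0.19, adjusted p = 0.0308) and at 4 h (-0.28, adjusted p = 0.00418).

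In complex III, Uqcrfs1 had the smallest adjusted p, with 162 and 174 scaled TPM in WT against 138 and 138 in TKO at 0 h, then 201 and 195 (WT) and 143 and 148 (TKO) at 4 h. Its log2 difference was -0.28 (adjusted p = 0.00132) at 0 h and -0.44 (adjusted p = 8.9e-05) at 4 h, with no overlap between genotypes. Uqcrc1 and Uqcrc2 did not pass at 0 h (-0.077 and -0.016). In complex IV, Cox4i1, Cox5a and Cox5b did not pass at 0 h either (-0.058, -0.18 and -0.023). In complex V, Atp5a1 had 1116 and 1175 scaled TPM in WT against 962 and 961 in TKO at 0 h and was lower in TKO at both times (log2 difference -0.25, adjusted p = 0.0114, and -0.36, adjusted p = 0.00169), and Atp5b passed only at 4 h (-0.27, adjusted p = 0.0108). The subunit c genes differed by 0.16 for Atp5g1 and 0.048 for Atp5g3, which did not pass, and by -0.21 for Atp5g2, which passed at 0 h (adjusted p = 0.0469).

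**Figure D3:**
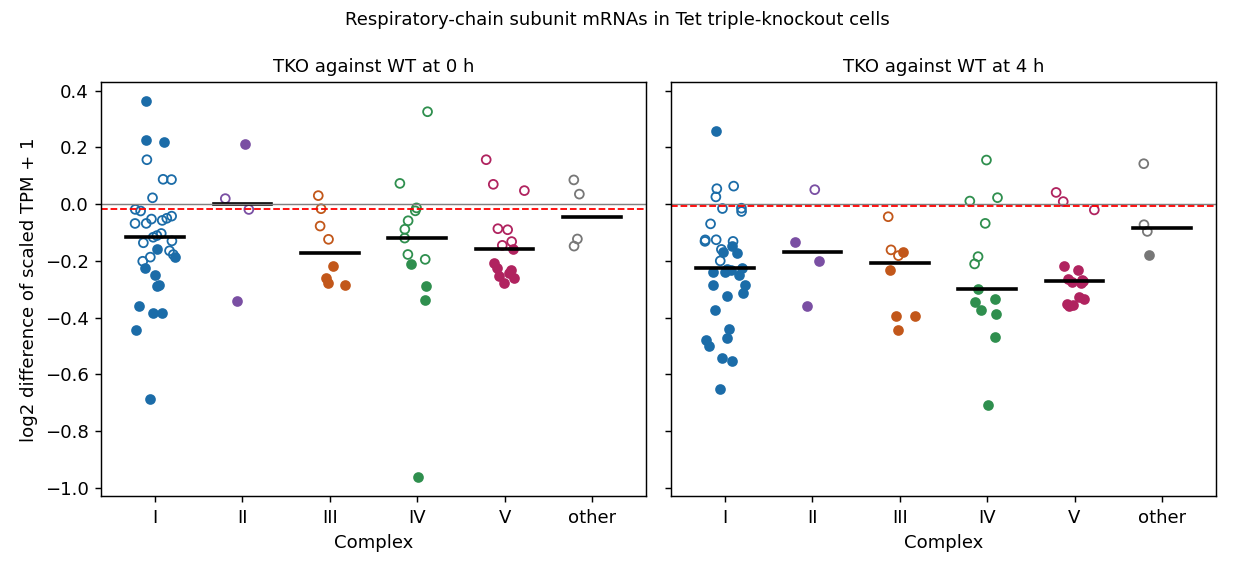
Fitted log2 difference of scaled TPM + 1 between TKO and WT ESCs at 0 h (left) and at 4 h of α-amanitin (right), with 1 point for each of the 79 tested genes, grouped by complex. Filled points passed an adjusted p of 0.05 in limma (4 higher and 28 lower at 0 h, 1 and 49 at 4 h), black bars are medians over genes, the dashed line is the median over all tested genes, and the lowest points are Cox6b2 in complex IV and Ndufv3 in complex I.

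The largest differences of these comparisons were between library preparations. Compared with ribodepleted WT libraries at 0 h, polyA libraries of WT cells gave 30 of 81 genes called higher (18.7% of all tested genes) and 0 called lower (16.4%), with 63 passing the adjusted p as higher and 10 as lower (40.1% and 40.8%). The 30 include Ndufa4l2 and Cox4i2, which entered the test only through their polyA values and could be called in 1 direction alone. Without the 8 tissue-restricted isoforms, these 2 among them, 25 of 76 were called higher and 0 lower. Limma voom also called 30 higher and 0 lower, where it called 2647 and 2328 of all 12481 tested genes. In limma, 74 genes were under an unadjusted p of 0.05 in either direction (81.9% of all tested genes). The polyA libraries lay wholly above the ribodepleted ones for 66 genes (43.1%) and wholly below for 11 (43.9%), with 67 of 81 log2 differences above 0 (49.5%). The median log2 difference was 0.44 against -0.0075 over all genes. Other abundant and short genes were higher in polyA libraries as well. From 200 to 1000 bases and above 100 scaled TPM, the median was 0.58 for 50 respiratory-chain genes and 0.43 for 334 other genes. It was 0.73 for the cytosolic ribosome list and 0.14 for mitochondrial ribosomal proteins. The 2 preparations came from separate sequencing experiments, so selection and experiment cannot be told apart.

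Ndufa4l2, Cox6b2, Atp5l and Cox7c had the largest differences. Ndufa4l2 was at 0.761 and 0.537 scaled TPM in ribodepleted and 20.3, 18.3 and 20.6 in polyA libraries (log2 difference 3.65, adjusted p = 3.22e-09), with at most 10 reads in a WT ribodepleted library at 0 h. It and Cox4i2 entered this test only through their polyA values, so they could pass in 1 direction alone. Exons of Ndufa4l2 overlap Shmt2 on the opposite strand. Cox6b2 was at 23.6 and 22.8 in ribodepleted against 189, 203 and 192 in polyA libraries (log2 difference 3.01, adjusted p = 2.29e-10). Atp5l was at 60.8 and 72.3 against 436, 401 and 419.9 (log2 difference 2.64, adjusted p = 8.36e-09). Cox7c, a small complex IV subunit, was at 533 and 603 against 2400.4, 2436 and 2405 (log2 difference 2.09, adjusted p = 1.06e-08). For these 4 genes all polyA libraries lay above both ribodepleted ones.

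Medians by complex were spread more widely here than in the other comparisons. The median log2 difference was 0.64 for complex IV (8 of 14 called), 0.56 for complex V (7 of 15), 0.42 for complex I (12 of 36), 0.27 for complex III (1 of 8, Uqcrq) and -0.053 for complex II (1 of 4, Sdhc). Cox4i2 in complex IV and Ndufa4l2 in complex I are in these counts. The 10 genes that passed as lower had features over 1000 bases, except Atp5o with 772. Among them were Atp5a1 (-0.44, adjusted p = 1.98e-05), Atp5c1 (-0.27), Uqcrc1 (-0.20), Ndufs1 (-0.21), Ndufv1 (-0.12), Sdha (-0.10) and Sdhb (-0.16). Across the 81 genes the difference fell with feature length, with a Spearman correlation of -0.67 between them, against -0.15 across the 12400 other tested genes. These are descriptions across genes that share libraries. The order of levels also changed. Cox7c exceeded Cox4i1 in every polyA library (1553, 1573 and 1620.1 scaled TPM for Cox4i1) and was below it in both ribodepleted ones (1369 and 1514).

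**Figure D4:**
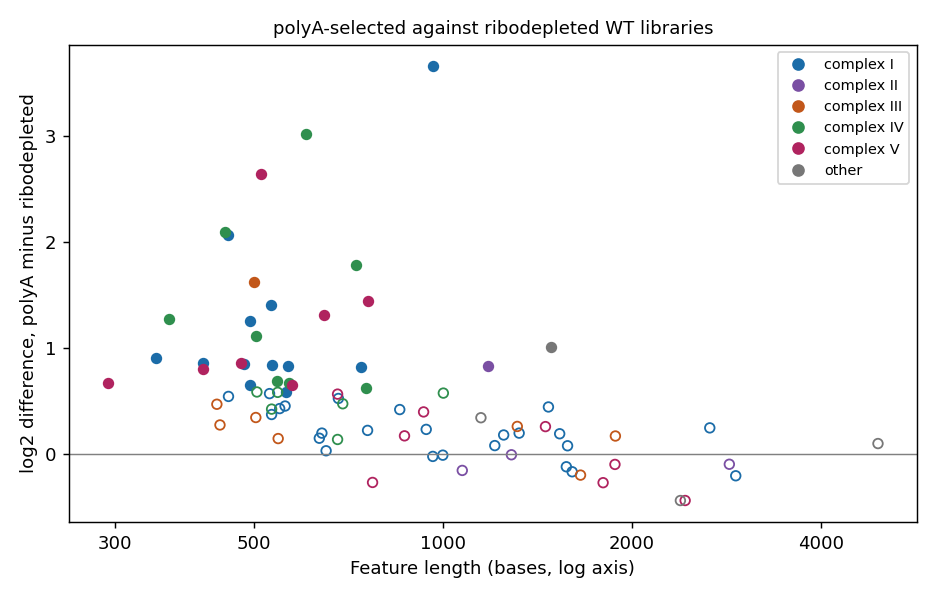
Log2 difference between polyA-selected and ribodepleted WT libraries at 0 h for 81 genes, plotted against feature length in bases on a log axis and coloured by complex. Filled points were called (30 higher, 0 lower), and differences above 1.5 are seen only among features shorter than 1000 bases.

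Lists of related genes, described by the same counts, give the context. Over all tested genes in WT after α-amanitin, 21.9% passed the adjusted p as higher and 15.8% as lower, and 0.0882% were called higher and 2.01% lower. In WT cells after α-amanitin, 11 of 11 other subunits and carriers passed as higher (median log2 change 0.29), including cytochrome c (Cycs, 0.27) and Cyc1 of complex III (0.30). Of 16 tested genes of the tricarboxylic acid cycle 15 passed as higher (median 0.25), of 19 glycolysis genes 15 (median 0.27), of 94 genes with cytosolic ribosomal protein symbols, which take in kinases named Rps6k, 66 (median 0.27) and of 76 mitochondrial ribosomal proteins 38 (median 0.17). The 29 tested assembly factors of the complexes stayed nearer to all genes, with a median of 0.092, 7 passing as higher and 2 as lower. The copper chaperone gene Sco2, needed to build complex IV, was the only one of them called, at -0.75 (adjusted p = 0.00299). Of 14 regulators of mitochondrial gene expression, 2 passed as higher and 2 as lower (median 0.00025).

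Between genotypes, the glycolysis list stood lower in TKO. At 0 h its median was -0.30, with 6 of 19 tested genes called lower (5.43% of all tested genes) and 1 higher (10.5%). The largest were Pfkp (-1.56, adjusted p = 2.65e-07), the platelet form of phosphofructokinase, Tpi1 (-0.89) and Pfkm (0.88), the muscle form of phosphofructokinase. Among the 29 tested assembly factors only Ecsit, a factor for complex I, was called. It was lower at 0 h (-0.66, adjusted p = 8.75e-05) and at 4 h (-0.66), when 5.82% of all tested genes were called lower and 11.0% higher. Tricarboxylic acid cycle genes had a median of -0.019 at 0 h and -0.16 at 4 h, with none called. The regulator Ppargc1b, a coactivator of respiratory genes, was called higher at 4 h (0.59, adjusted p = 0.00193). At 0 h, 6 of the 14 tested regulators passed the adjusted p as lower (28.2% of all tested genes) and 2 as higher (27.8%). Their median was -0.11. Among the 6 were Nrf1, Gabpa and Yy1, at -0.18, -0.23 and -0.21 (adjusted p = 0.0196, 0.00573 and 0.00474). Any part of these in the levels of the subunits was not tested.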

How the data were processed

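The authors inspected reads with FastQC, dropped low-complexity reads (AfterQC) and those matching rRNA or tRNA (Bowtie2), clipped adapters with Trimmomatic, aligned the rest to mm9 with STAR, counted reads per RefSeq gene with HTSeq and deposited TPM per library. Versions and the strand setting are not given in the sources used here. All TPM of the 19869 genes detected came back as whole reads within 0.01 read.

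Each library's TPM were scaled by a size factor (median of ratios to the geometric mean). A gene entered the test where its scaled TPM averaged more than 1, with limma 3.58.1 in R 4.3.3 on log2(scaled TPM + 1), which understates changes of low genes, in 1 fit of the 8 ribodepleted libraries and 1 fit of the polyA and WT 0 h libraries. Adjusted p are Benjamini-Hochberg values over all genes tested, and figures were drawn with matplotlib 3.10.9 in Python 3.11.15. The fit was also run on simulated reads with known changes. These were drawn separately for each gene, so shifts shared by many genes of a library were left out, and how the fit handles them was not tested. Named genes were the members called (the 4 largest where over 8), the highest and lowest level of each complex, fixed catalytic subunits and isoform pairs, and called genes of related lists (at most 4, else the 3 largest), and others were chosen after their values were seen. Members and lists were chosen with earlier results of these data known. Replicates of a group differed by more than counting noise (chi-square per degree of freedom at least 1.56). Same-numbered ribodepleted libraries had correlations of -0.0443 to 0.119 between groups, so the numbers were not used as pairs.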

Additional observations from a re-analysis of the deposited data

How the results depend on the processing

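Of 351 recomputed medians and counts, 328 were classed as the same and 23 as moved. Medians were judged against the spread between libraries (SD 0.089 in the ribodepleted fit), so the class does not mean an equal size. The interaction median against all genes was -0.092 with size factors and -0.018 after quantile normalisation, a shift within that spread. Most counts of called genes were 0 with the settings used above, all but those lower in TKO at 0 h and 4 h and higher in polyA libraries. For these counts, the interaction among them, the class same compared 0 called genes with 0 and says little about stability. Against all genes, the median change of the respiratory-chain genes in WT after α-amanitin was 0.12 after quantile normalisation, where it was 0.27 with size factors, and the median difference of TKO from WT was 0.000802 at 0 h and -0.033 at 4 h. Without a filter on low values, 84 of the 85 genes were tested, where the filter had left 79. Of these, 1 was called higher in WT after α-amanitin (10 of all 19470 genes tested) and 4 lower in TKO at 4 h (892 of 19470). Quantile normalisation called 1 lower in TKO at 4 h (870 of 12483) and deposited TPM called 0 (444 of 12481). Without a fold threshold, 69 genes were called higher in WT after α-amanitin (21.9% of all tested genes). In TKO against WT at 0 h, 4 were called higher and 28 lower (27.8% and 28.2% of all tested genes). At 4 h, 1 was called higher and 49 lower (29.1% and 30.3%). In polyA libraries 63 were called higher and 10 lower (40.1% and 40.8%).

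Leaving out each library in turn gave medians against all genes of 0.096 to 0.28 in TKO after α-amanitin (0.18 with all libraries), -0.18 to -0.0032 for the interaction (-0.092), -0.17 to -0.044 for TKO against WT at 0 h (-0.11), -0.32 to -0.12 at 4 h (-0.22) and 0.37 to 0.51 for polyA libraries (0.45). It gave 0 to 1 genes called higher in TKO after α-amanitin and 1 to 4 called lower in TKO at 4 h. The ends for TKO after α-amanitin, the interaction and TKO at 4 h came from leaving out replicates 1 and 2 of TKO at 4 h, and those for TKO at 0 h and polyA libraries from replicates 1 and 2 of WT at 0 h. The count of 4 called lower also came without replicate 2 of WT at 4 h. With replicate number as a block, 70 genes passed the adjusted p as higher in WT after α-amanitin (22.3% of all tested genes) and 0 in TKO (0.0%). In TKO against WT at 0 h, 5 passed as higher and 27 as lower (28% and 28.5% of all tested genes). At 4 h, 1 passed as higher and 49 as lower (29.1% and 30.4%). In polyA libraries 60 passed as higher and 10 as lower (39% and 39.5%). Among the 4 ribodepleted groups, same-numbered libraries had correlations of at most 0.119, so the block was an alternative only, and the polyA group was not in that check. Cox4i1, higher in polyA libraries (0.14), was lower after quantile normalisation (-0.15, adjusted p = 0.00256). Features of 200 bases or more, an alternative chosen after seeing the data, changed none of these medians and counts beyond their spread. The cause of these shifts was not tested. With 2 libraries a group, changes near 0.1 on the log2 scale are of the size of the spread between libraries (SD 0.089 for the median of the genes).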
